A study of Homo sapiens with 9 samples.

Results

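The genes described here were 44 human nuclear receptor genes, with ESR1 and PGR not among them. They were chosen by name from the nuclear receptor superfamily, and all 44 were found among 20037 protein-coding genes of a RefSeq table on GRCh38. A called region of open chromatin was assigned to the protein-coding gene with the nearest start or end, within 50 kb. By this rule the 44 genes took 229 of 62666 assigned regions in normoxia with shCtrl, 185 of 54522 in hypoxia with shCtrl and 165 of 45615 in hypoxia with shZHX2.

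Open chromatin was mapped by ATAC-seq, in which a transposase cuts accessible DNA and adds sequencing adapters to it, in T47D, an oestrogen receptor-positive luminal breast cancer cell line. All cells carried a lentiviral short hairpin RNA and were selected with an antibiotic: a control hairpin (shCtrl) in normoxia, the same control in hypoxia, or a hairpin against ZHX2 (shZHX2) in hypoxia, with 3 samples per group and 9 in all. ZHX2 encodes a nuclear protein with zinc fingers and homeoboxes, and a hairpin lowers the messenger RNA of its target without removing the gene. The oxygen level, the length of the hypoxia, the number of hairpins and whether replicates were separate cultures are not stated in the labels.

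Each group was deposited as 1 list of regions, without values per sample. Differences between lists therefore have no replicate check, and no p-value is given. The lists held 90959, 77448 and 62774 regions on the chromosomes used, covering 60.1, 48.5 and 40.6 Mb in normoxia, hypoxia with shCtrl and hypoxia with shZHX2, and values are given below in this order. Read depth is not known. As a check of the cell line, 11 of 12 luminal epithelial markers had a region within 1 kb of their start or end in each list, with ESR1 as the exception, against 4, 4 and 3 of 6 basal markers, 3, 3 and 2 of 7 fibroblast and endothelial markers, 2, 2 and 3 of 5 blood markers and 2 of 4 liver markers in each list. Over all protein-coding genes the share was 74.2%, 72.3% and 70.0%. The lists hold no RNA values, so the knockdown of ZHX2 was not checked here.

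Nuclear receptors are transcription factors with a conserved zinc-finger DNA-binding domain and a domain that binds a small lipid-like ligand, such as a steroid, a retinoid, thyroid hormone, vitamin D, a fatty acid or an oxysterol. Many bind the core motif AGGTCA, alone or as a pair of copies, and a large share of them pair with a retinoid X receptor. Others, called orphan receptors, have no settled ligand, and NR0B1 and NR0B2 lack the DNA-binding domain. In breast cancer cells several of them act on the same enhancers as the oestrogen and progesterone receptors.

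The sequences below are examples of start sites that differed between lists and of start sites touched in all 3 lists. They are the 250 bases before an annotated transcript start, from RefSeq on GRCh38.p14, written 5′ to 3′ on the strand of the gene. That of NR2F1 (chr5:93582972-93583221, plus strand) was touched by a called region in normoxia and with shZHX2 and not in hypoxia with shCtrl, and capitals mark the 101 bases inside the normoxia region. That of PPARG (chr3:12288810-12289059, plus strand) was touched in both shCtrl lists and not with shZHX2, and those of ESR2 (chr14:64294411-64294660, minus strand), NR1D1 (chr17:40100590-40100839, minus strand) and RXRA (chr9:134326205-134326454, plus strand) were touched in all 3 lists. Capitals mark 1 match to AGGTCA in PPARG and 1 in ESR2, 3 matches to ACGTG or GCGTG, the core of the hypoxia response element, in NR1D1, and 6 matches to GGGCGG, the GC box, in RXRA. Both strands were searched and matches may overlap.
NR2F1: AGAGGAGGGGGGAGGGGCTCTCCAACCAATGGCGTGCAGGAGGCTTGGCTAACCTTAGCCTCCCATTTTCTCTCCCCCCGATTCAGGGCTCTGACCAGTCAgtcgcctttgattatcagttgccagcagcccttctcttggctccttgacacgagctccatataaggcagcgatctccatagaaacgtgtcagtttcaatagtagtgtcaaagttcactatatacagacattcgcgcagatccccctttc
PPARG: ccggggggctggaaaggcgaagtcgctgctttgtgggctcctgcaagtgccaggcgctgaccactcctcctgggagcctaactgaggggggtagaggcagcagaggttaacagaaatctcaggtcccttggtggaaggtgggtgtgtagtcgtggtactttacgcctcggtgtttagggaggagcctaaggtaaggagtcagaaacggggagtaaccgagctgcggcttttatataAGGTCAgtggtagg
ESR2: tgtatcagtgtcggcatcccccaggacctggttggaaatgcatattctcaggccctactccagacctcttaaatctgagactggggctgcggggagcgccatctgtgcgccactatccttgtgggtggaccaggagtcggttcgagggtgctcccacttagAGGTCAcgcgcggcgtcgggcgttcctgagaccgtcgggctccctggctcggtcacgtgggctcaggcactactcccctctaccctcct
NR1D1: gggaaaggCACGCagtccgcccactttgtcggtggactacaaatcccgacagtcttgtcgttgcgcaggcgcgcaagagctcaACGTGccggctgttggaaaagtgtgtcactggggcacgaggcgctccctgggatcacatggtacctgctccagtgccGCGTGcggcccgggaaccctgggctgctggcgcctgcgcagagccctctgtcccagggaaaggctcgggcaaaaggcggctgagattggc
RXRA: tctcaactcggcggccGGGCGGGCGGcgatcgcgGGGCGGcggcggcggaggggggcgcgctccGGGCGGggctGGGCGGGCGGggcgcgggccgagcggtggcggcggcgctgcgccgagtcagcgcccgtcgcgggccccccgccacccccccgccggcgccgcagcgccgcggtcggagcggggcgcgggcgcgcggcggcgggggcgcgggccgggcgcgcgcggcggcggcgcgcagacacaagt

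Every member had at least 1 region in normoxia and in hypoxia with shCtrl, and 43 of 44 had one with shZHX2. The exception was NR1I2, the pregnane X receptor that senses foreign compounds in liver. The median member had 4, 3 and 3 regions, against 2 in each list for all protein-coding genes. RXRA, the common partner of many other receptors, had 27, 22 and 22 regions, and only 2, 3 and 2 genes, RXRA included, had as many as RXRA. Summed over the lists, RXRA was followed by NR5A2 with 31 regions, ESRRB with 30, NR6A1 with 27 and RARA with 23, and HNF4A, NR2F2 and NR4A1 tied at 22.

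**Figure D1:**
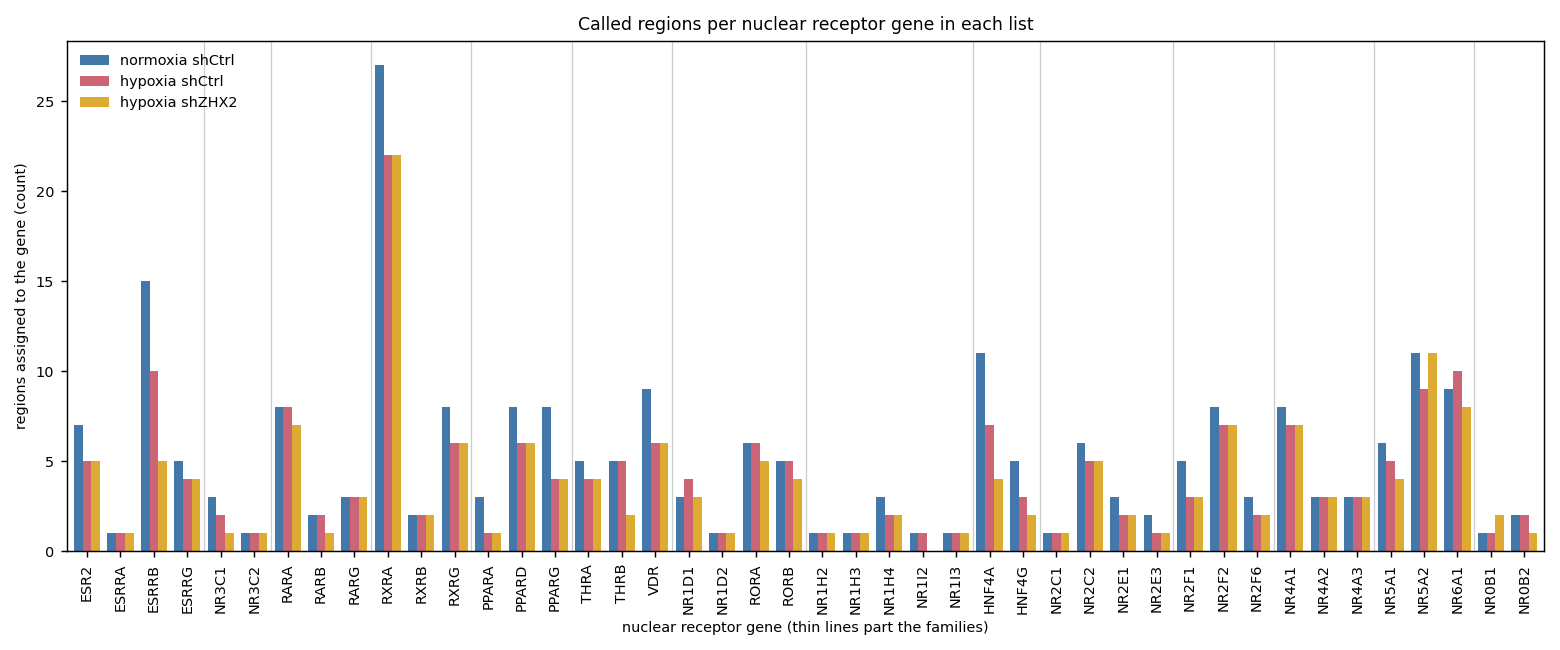
Called regions assigned to each of the 44 nuclear receptor genes (vertical axis, count) in the 3 lists, with 1 bar per list and no error bars because each group has 1 list; thin lines part the receptor families. RXRA stands highest in every list with 27, 22 and 22 regions, and NR1I2 has no bar with shZHX2.

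A region was called gene-end when it lay within 1 kb of the start or end of a protein-coding gene and distal otherwise. The members had 40, 35 and 35 gene-end regions, which was 17.5%, 18.9% and 21.2% of their regions, and 189, 150 and 130 distal regions. Over all genes the gene-end share was higher, at 23.7%, 26.1% and 29.5%. Of the distal regions, 123, 99 and 87 lay inside the gene they were assigned to, and their median gap to its nearer end was 13.9, 13.8 and 13.4 kb. The member regions thus lay mostly away from gene ends, as did the assigned regions of all genes. The share of distal regions inside the gene was not computed over all genes.

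Counted by gene, 34, 32 and 31 of the 44 members had a region at an end of their own, or 77.3% (Wilson 95% interval 63.0 to 87.2), 72.7% (58.2 to 83.7) and 70.5% (55.8 to 81.8). Over all genes these shares were 74.2%, 72.3% and 70.0%, so the members lay near the background in each list. All intervals cover counting error only, not the spread between cultures. The 10 members without such a region in any list were ESRRB, ESRRG, NR3C1, NR3C2, NR1H4, NR1I2, NR1I3, NR2E1, NR5A2 and NR0B2. The call differed between lists for 3 members, namely HNF4A, NR2E3 and NR0B1. The share of all genes whose call differed was not computed.

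The first comparison asks which regions seen in normoxia were not called in hypoxia, with the control hairpin in both. Of the 229 member regions in normoxia, 52 touched no region of the hypoxia shCtrl list, or 22.7% (17.8 to 28.6), against 17.8% of all assigned regions. For distal regions the count was 48 of 189, or 25.4% (19.7 to 32.0), against 21.7%, and for gene-end regions 4 of 40, or 10.0% (3.96 to 23.1), against 5.17%. The background lay inside the interval for all, for distal and for gene-end regions. For all regions it lay just above the lower limit, at 17.79% against 17.76%. Each region was also given the rate of its score decile over the whole list, including regions assigned to no gene. In this way 50.2 of the 229 were expected, near the 52 seen. The 4 gene-end regions belonged to NR2F1, HNF4A, NR2E3 and THRA.

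In the other direction, few hypoxia regions lacked a match in the normoxia list, which is the longer list. Of 185 member regions in hypoxia with shCtrl, 7 touched none in normoxia, or 3.78% (1.84 to 7.60), against 5.19% of all assigned regions. All 7 were distal, 7 of 150 or 4.67% (2.28 to 9.32) against 6.57%, and no member had more than 1. At gene ends the count was 0 of 35, which allows a share of up to 8.57%, against 1.26%. By score, 10.5 of the 185 were expected.

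The second comparison asks which hypoxia regions were not called with the hairpin against ZHX2. Of the 185 member regions, 33 touched no region of the shZHX2 list, or 17.8% (13.0 to 24.0), against 21.3% of all assigned regions. Distal regions made up 32 of these, 32 of 150 or 21.3% (15.5 to 28.6) against 26.6%, and they fell to 20 members. At gene ends 1 of 35 was not called, or 2.86% (0.506 to 14.5), against 6.17%, and it lay upstream of HNF4A. By score 41.4 were expected, above the 33 seen. The background lay inside the interval for all, for distal and for gene-end regions.

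In the reverse direction, 12 of 165 member regions with shZHX2 touched none in hypoxia with shCtrl, or 7.27% (4.21 to 12.3), against 5.43%. Distal regions gave 11 of 130, or 8.46% (4.79 to 14.5), against 7.26%, and gene-end regions 1 of 35, or 2.86%, against 1.08%. By score 11.3 were expected. The gene-end region was the one at the NR2F1 start. Both comparisons share the hypoxia shCtrl list, and the 3 lists differ in length, so a longer list has more regions that the shorter one lacks whichever genes are counted. With lists of equal length by score, the shares of all member regions were 9.55% from normoxia to hypoxia and 8.39% in reverse, and 8.39% from hypoxia to shZHX2 and 13.3% in reverse. At gene ends the order of the first pair turned, with 0 of 30 from normoxia to hypoxia and 4 of 34, or 11.8%, in reverse. Shares over all genes were not computed for lists of equal length, so whether the receptors differ from other genes there was not tested.

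**Figure D2:**
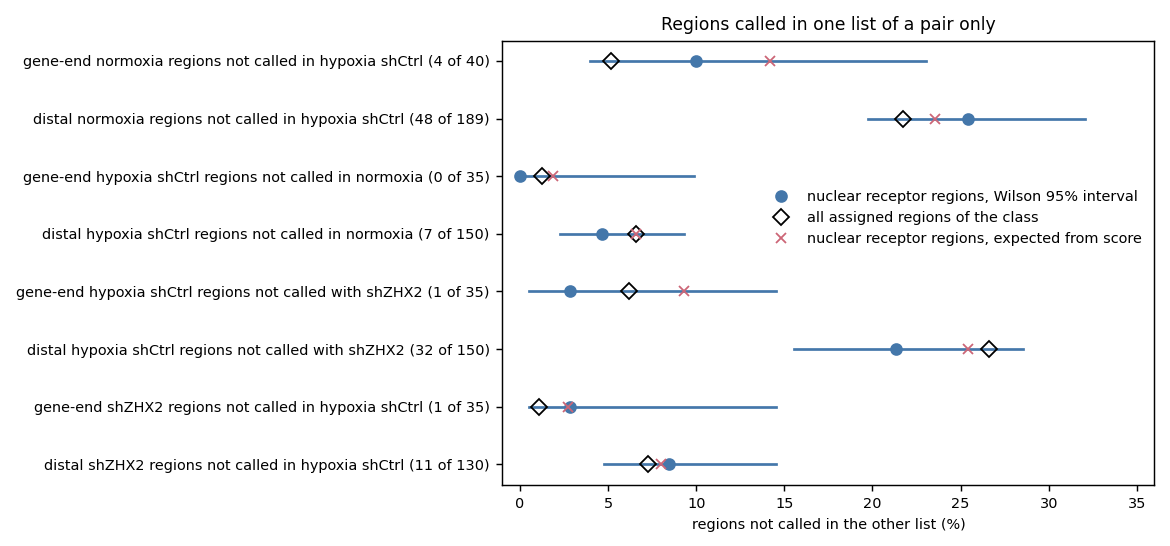
Share of member regions (horizontal axis, percent) that no region of the other list of a pair touched, for gene-end and distal regions; dots are members with Wilson 95% intervals, diamonds all assigned regions of the same class, and crosses the share expected from score. The diamonds lie inside the member interval in all 8 classes, from 0 of 35 to 48 of 189.

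Joined across lists, the member regions formed 239 sites, of which 151 were called in all 3 lists. That was 63.2%, against 63.6% of sites over all genes. At gene ends 35 of 40 sites were called in all 3, or 87.5%, against 88.4%. Normoxia alone held 45 sites, or 18.8% against 14.8%, the 2 shCtrl lists alone held 26, or 10.9% against 13.7%, and normoxia and shZHX2 without the hypoxia control held 7, or 2.93% against 2.00%. Hypoxia with shCtrl alone held 6 sites, or 2.51% against 3.54%, and shZHX2 alone held 3, or 1.26% against 1.66%. Both hypoxia lists without normoxia held 1 site, in NR5A2, or 0.42% against 0.71%.

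The regions called in 1 list of a pair were mostly weak ones. The authors' score ranks regions within a list, and a percentile of 100 is the highest score. Normoxia member regions not called in hypoxia had a median percentile of 12.4 and a highest of 43.3, whereas those also called in hypoxia had a median of 64.6. Hypoxia regions not called with shZHX2 had a median of 13.2, against 63.8 for those called. Their 2 exceptions above the middle of the list lay in RXRA, at percentile 68.3 and with a fold enrichment of 3.81 (chr9:134422246-134422746), and in VDR, at 56.2 and with 2.00 (chr12:47900532-47900910). Among regions with shZHX2 that hypoxia with shCtrl lacked, the highest lay in ESRRG at percentile 54.3.

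**Figure D3:**
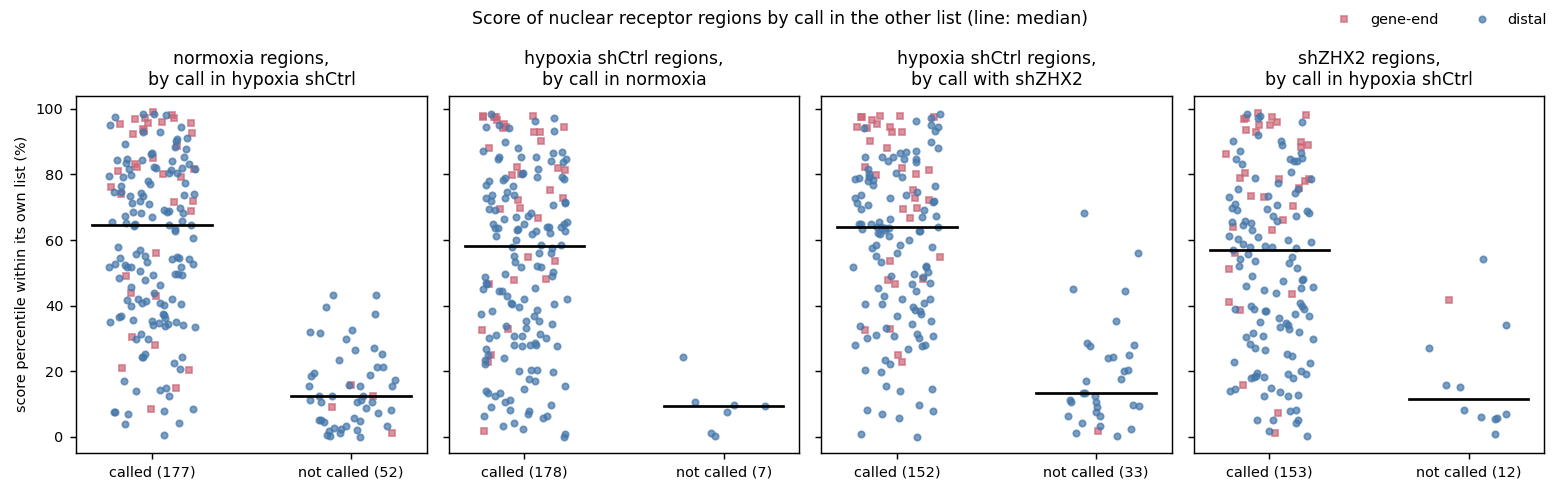
Score percentile within its own list (vertical axis, percent) of each member region, split by whether the other list of the pair called it; squares are gene-end regions, circles distal regions, and lines medians. Regions not called in hypoxia sit at or below 43.3 with a median of 12.4, and 2 hypoxia regions not called with shZHX2 sit above 50.

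Counted by gene, 25 members had at least 1 normoxia region that hypoxia lacked, or 25 of 44 where 36.1% of all genes had one, and 7 members had 3 or more where 4.35% of all genes did. These 7 were ESRRB with 6, RXRA and HNF4A with 5 each, PPARG with 4, and VDR, HNF4G and NR5A2 with 3 each. By score 6.16 were expected for ESRRB, 5.62 for RXRA, 4.24 for HNF4A, 2.93 for PPARG, 1.73 for VDR, 1.94 for HNF4G and 2.21 for NR5A2. Against shZHX2, 20 members had at least 1 hypoxia region that was not called, where 36.8% of all genes did, and 4 had 3 or more, where 4.93% did: ESRRB with 5, and RXRA, THRB and HNF4A with 3 each. By score 4.26, 5.99, 1.72 and 2.33 were expected for these 4. In the reverse directions 7 members had at least 1 region against 12.3% of all genes, and 9 members against 11.0%. No member had 3 or more there, where 0.270% and 0.145% of genes did. The shares by gene were not adjusted for the number of regions per gene. The median member had 4, 3 and 3 regions against 2 in each list for all genes, which gives members more chances of such a count. Counted by region, 52 member regions were not called from normoxia to hypoxia, with 50.2 expected by score. From hypoxia to shZHX2 the count was 33, with 41.4 expected.

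**Figure D4:**
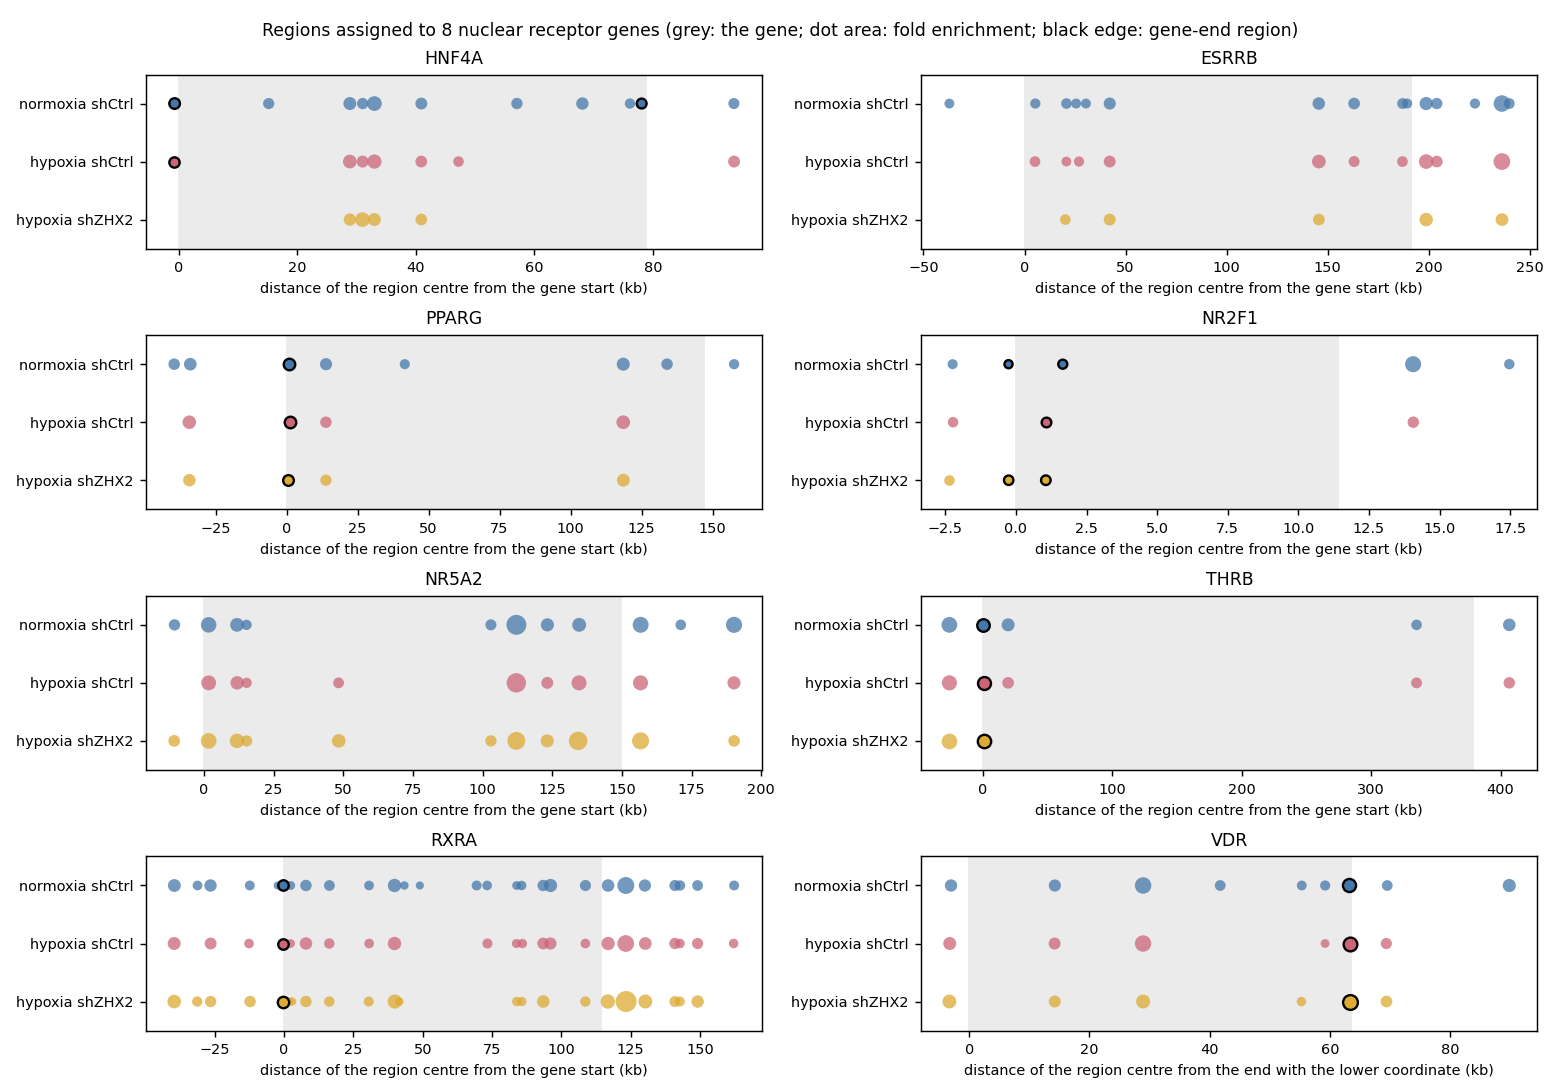
Regions assigned to 8 nuclear receptor genes by distance of the region centre from the gene start (horizontal axis, kb; for VDR from the end with the lower coordinate), with 1 row per list; grey is the gene, dot area is the authors' fold enrichment, and a black edge marks a gene-end region. HNF4A goes from 11 to 7 to 4 regions and ESRRB from 15 to 10 to 5, and NR2F1 has its upstream gene-end dot in normoxia and with shZHX2 only.

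The members named by a rule on their counts were ESRRB, RXRA, HNF4A, PPARG, VDR, HNF4G, NR5A2, THRB, NR2E3, NR0B1, NR6A1, RARA, NR2F2 and NR4A1, and the values given for any other member were picked after they were seen. Fold enrichment is the authors' value for a region over its local background. It describes and ranks regions within a list, and folds set side by side below are not tests of change.

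Among steroid-type receptors, ESR2 encodes oestrogen receptor beta, and ESRRA, ESRRB and ESRRG encode relatives that bind no oestrogen. ESR2 had 7, 5 and 5 regions and a strong one in every list at its start (chr14:64337885-64339255 in normoxia), with folds of 6.57, 6.46 and 6.42 and percentiles of 99.1, 97.5 and 95.1. The internal start printed above lay in a further region called in all 3 lists, with folds of 5.97, 5.62 and 5.56. ESRRB, an orphan receptor best known from embryonic stem cells, had no gene-end region and went from 15 to 10 to 5 regions. All 5 that were left with shZHX2 were also called in both shCtrl lists. The region with the highest fold in both shCtrl lists lay 44.9 kb beyond the gene (chr14:76546779-76547282 in normoxia), at percentile 76.5 in normoxia, 79.2 in hypoxia and 29.8 with shZHX2. ESRRA had 1 region at its start in each list.

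ESRRG had 5, 4 and 4 regions. Inside the gene, shZHX2 had a pair of neighbouring regions that hypoxia with shCtrl lacked (chr1:216528908-216529170 and chr1:216531297-216531681), with folds of 6.18 and 4.40, where 0.0930 were expected by score. The second of them was also called in normoxia, with a fold of 2.88. Conversely, 2 regions beyond the gene were called in both shCtrl lists and not with shZHX2. The strongest region in each list covered internal starts (chr1:217089450-217090304 in normoxia), with folds of 7.36, 6.88 and 7.43.

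The corticosteroid receptors NR3C1 and NR3C2, for glucocorticoids and mineralocorticoids, had no region at either annotated gene end. NR3C2 had its only assigned region 2.30 kb inside the gene (chr4:148442033-148443021 in normoxia), with folds of 7.46, 7.22 and 8.07, over an internal start. NR3C1 had 3, 2 and 1 assigned regions. A further region lay over 5 of its 7 annotated start windows in every list (chr5:143403090-143405480 in normoxia), with folds of 3.70, 3.57 and 3.79. The rule gave that region to LOC128966704, a protein-coding annotation in the same place, so the counts for NR3C1 leave out its main promoters.

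Retinoid receptors bind retinoic acid (RARA, RARB, RARG) or act as partners (RXRA, RXRB, RXRG), and all 6 had a gene-end region in every list. RARA had 8, 8 and 7 regions. Its regions at chr17:40314637-40314897 and chr17:40345598-40346008 in hypoxia, at percentiles 45.0 and 35.3, were also called in normoxia and not with shZHX2, whereas one at chr17:40330326-40330886 was called with shZHX2 only. RARA, RARB and RARG together had 0 of 13 normoxia regions that hypoxia lacked, which allows a share of up to 23.1%, with 0.263 regions expected by score. With shZHX2, 3 of their 13 hypoxia regions were not called, with 1.40 expected. RXRG had 8, 6 and 6 regions, RARG 3 in each list, RXRB 2 in each list and RARB 2, 2 and 1.

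For RXRA the start printed above lay in a wide region (chr9:134325293-134327247 in normoxia) with folds of 2.81, 2.83 and 3.32. Its strongest region lay 8.71 kb beyond the gene (chr9:134449293-134450060 in normoxia), at percentiles 98.2, 97.2 and 98.4. Of its regions, 15, 12 and 12 lay inside the gene. The RXRA region near chr9:134422168-134422903 in normoxia was at percentile 83.3 there and 68.3 in hypoxia, and was not called with shZHX2. A region at chr9:134295180-134295379 was called in normoxia and with shZHX2 and not in hypoxia with shCtrl, at percentiles 12.4 and 5.69.

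Among the lipid-sensing PPAR genes, PPARG, the regulator of fat cell formation, had 8, 4 and 4 regions. The 4 that hypoxia lacked in PPARG had percentiles from 0.079 to 21.3 in normoxia. The region at its start ran over chr3:12287539-12289150 in normoxia and chr3:12287573-12289152 in hypoxia, and over chr3:12287507-12288100 with shZHX2, where it no longer reached the start printed above. With shZHX2 it ranked at percentile 1.18. PPARD had 8, 6 and 6 regions and the highest gene-end folds among regions assigned to members, 7.42, 8.24 and 9.54. PPARA, a regulator of fatty acid oxidation, had 3, 1 and 1 regions, with the one at its start in every list. Of the 19 PPAR regions in normoxia, 8 were not called in hypoxia, with 5.76 expected by score. With shZHX2, 0 of 11 PPAR regions in hypoxia were not called, which allows a share of up to 27.3%, with 1.97 expected.

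The thyroid hormone receptor gene THRB had 5, 5 and 2 regions. Its 3 regions that shZHX2 lacked were all called in normoxia too, at hypoxia percentiles of 20.5, 9.63 and 24.0, and the region at the THRB start was called throughout, with folds of 4.01, 4.30 and 4.58. THRA had a weak region upstream of its start in normoxia only (chr17:40061081-40061338, fold 2.02), beside a main start region with folds of 4.85, 4.95 and 5.39. VDR, the vitamin D receptor, had 9, 6 and 6 regions. At one end of the gene VDR had a region at percentiles 96.9, 97.7 and 98.2. A region that lay 4084 bp inside that end of VDR in hypoxia, at percentile 79.9 in normoxia and 56.2 in hypoxia, was not called with shZHX2.

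The clock receptors NR1D1, NR1D2, RORA and RORB repress or activate genes of the circadian feedback loop, and all 4 had a gene-end region in every list. In hypoxia 0 of their 15 normoxia regions were not called, which allows a share of up to 20%, with 1.55 regions expected, and 3 of 16 hypoxia regions were not called with shZHX2, with 3.78 expected. NR1D1 had a start region with a fold of 4.82 in hypoxia (chr17:40100242-40101254), which covered the start printed above. Of the sterol, bile acid and xenobiotic sensors, NR1H2 had 1 region, at its start, with folds of 6.48, 6.77 and 7.28. NR1H3, the other liver X receptor gene, had 1 assigned region per list, while a stronger one over a start of NR1H3 (chr11:47248478-47249364 in normoxia, fold 8.33) went to its neighbour ACP2. NR1H4, the bile acid receptor, had 3, 2 and 2 regions, NR1I3 had 1 in each list and NR1I2 had 1, 1 and 0.

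HNF4A and HNF4G encode regulators of liver and gut epithelium. HNF4A went from 11 to 7 to 4 regions, and the 4 left with shZHX2 lay inside the gene and were called in all 3 lists, with normoxia percentiles from 35.6 to 83.4. Upstream of the HNF4A start, a region was called in normoxia (chr20:44354805-44355173, fold 2.90) and in hypoxia with shCtrl (chr20:44354811-44355024, fold 2.73) and not with shZHX2. A region inside its last kilobase was called in normoxia only (chr20:44433652-44433936, fold 2.49). All 3 of these ranked low in their lists, at percentiles 8.60, 1.83 and 1.31. HNF4G had 5, 3 and 2 regions, and its gene-end region was called throughout, with folds of 5.29, 4.95 and 5.53.

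COUP-TF receptors are orphan regulators of development. NR2F1 had 5, 3 and 3 regions. At the NR2F1 start a narrow region was called in normoxia (chr5:93582846-93583072, fold 1.70) and with shZHX2 (chr5:93582817-93583113, fold 2.29) and not in hypoxia with shCtrl, at percentiles 12.4 and 41.7. Regions on both sides of it, 1 upstream and 1 inside the gene, were called in all 3 lists. A distal region of NR2F1 with a fold of 6.60 in normoxia had 3.36 in hypoxia and was not called with shZHX2. NR2F2 had 8, 7 and 7 regions, of which 7 sites were called in all 3 lists, and its strongest lay 16.5 kb beyond the gene with folds of 6.14, 6.59 and 7.16. NR2F6 had 3, 2 and 2 regions.

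In the testicular and tailless-type group, NR2E3, a photoreceptor regulator, had a gene-end region in normoxia only (chr15:71810755-71811087, fold 2.54, percentile 9.19), and a distal one in all 3 lists with folds of 4.23, 4.40 and 6.85. NR2C1 had 1 region, at its start, with folds of 6.97, 6.87 and 6.98. NR2C2 had 6, 5 and 5 regions. NR2E1, a neural stem cell regulator, had 3, 2 and 2 regions, all outside the gene, and the one 31.7 kb away had folds of 10.0, 9.32 and 9.49.

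The NR4A genes are immediate-early orphan receptors, induced within minutes to hours by many stimuli. NR4A1 had 8, 7 and 7 regions, and 7 sites were called in all 3 lists. Its strongest lay 9.74 kb inside the gene (chr12:52032574-52033400 in normoxia), at percentiles 98.3, 98.4 and 97.9. NR4A2 and NR4A3 had 3 regions each in every list. Together 1 of 14 normoxia regions was not called in hypoxia, with 0.491 expected, and 0 of 13 hypoxia regions were not called with shZHX2, which allows a share of up to 23.1%, with 0.541 expected.

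NR5A1, NR5A2 and NR6A1 encode regulators of steroid synthesis, of liver and gut and of germ cells. NR5A2 had 11, 9 and 11 regions and no gene-end region. Of the 3 normoxia regions of NR5A2 that hypoxia with shCtrl lacked, 2 were called again with shZHX2 (chr1:200016899-200017220 and chr1:200130577-200130873 in that list), with folds of 3.55 and 3.29. The NR5A2 region at chr1:200075638-200076455 in hypoxia was the single site called in both hypoxia lists and not in normoxia, with folds of 3.03 and 4.74. The highest folds of NR5A2 were 10.1 in normoxia and 9.63 in hypoxia, 37.3 kb inside the gene (chr1:200139664-200140072 in normoxia). NR6A1 had 9, 10 and 8 regions, all inside the gene, and its start region ranked at percentiles 96.0, 97.4 and 97.6. NR5A1 had 6, 5 and 4 regions.

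The 2 members without a DNA-binding domain dampen other receptors. NR0B1 had a normoxia region that ran to 979 bp from the gene (chrX:30302004-30303227, fold 3.36). In hypoxia with shCtrl the NR0B1 region was narrower (chrX:30302040-30302330, fold 2.91) and lay 1876 bp away, and with shZHX2 the same stretch held 2 regions. The gene-end call of NR0B1 therefore ended although the sites overlapped. NR0B2 had 2, 2 and 1 regions, and the one 7.33 kb from the gene had folds of 8.37, 8.32 and 9.58.

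Annotated transcript starts gave a second view, since many lie inside a gene. RefSeq start windows, from 250 bases before to 50 after a start, were matched for 39 members with 87 windows, and VDR, HNF4G, NR2F6, NR4A2 and NR0B2 had none. A region touched at least 1 window in 28, 26 and 26 members, or 71.8%, 66.7% and 66.7%, against 71.2%, 69.8% and 68.7% of all genes with windows. Of the 87 windows, 43 were touched in all 3 lists, 39 in none and 5 in some. These 5 were a pair of overlapping PPARG windows and a window of NR1H3 in both shCtrl lists, that of NR2F1 in normoxia and with shZHX2, and one of NR5A2 in normoxia only, by 19 bases.

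Windows touched in all 3 lists had a median GC content of 64.7% and a median of 26 CpG dinucleotides, against 48.0% and 4 in windows touched in none. Over all genes these medians were 66.3% and 27, against 52.0% and 5. The receptor starts without a call were thus mostly poor in CpG. There were exceptions: 3 NR3C2 windows held 38, 40 and 42 CpG dinucleotides and were touched in no list.

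**Figure D5:**
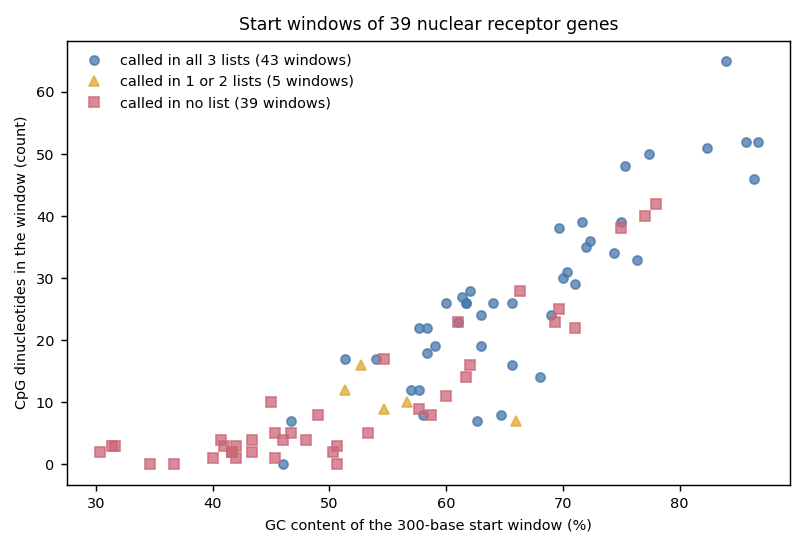
GC content (horizontal axis, percent) and number of CpG dinucleotides (vertical axis) of the 87 start windows of 39 nuclear receptor genes, by the number of lists that called a region there. Windows called in all 3 lists have medians of 64.7% and 26, and windows called in none 48.0% and 4.

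Short motifs were searched on both strands of these windows, and a match is only a match of letters. The receptor core AGGTCA was held by 18.4% of member windows and 11.9% of all 22199 windows, and its extended form AAGGTCA, which contains it, by 6.90% and 3.22%. AGAACA, a core bound by corticosteroid receptors such as NR3C1, was in 14.9% and 11.7%. The hypoxia response core ACGTG or GCGTG was in 47.1% and 54.7%, GGGCGG in 50.6% and 56.3%, CCAAT in 33.3% and 34.7%, TGACG, of cyclic AMP response elements, in 20.7% and 27.9%, and TGACTCA, of AP-1, in 4.60% and 4.01%. AGGTCA was in 5 of the 43 windows called in all lists (11.6%) and in 9 of the 39 called in none (23.1%), against 9.08% and 16.8% over all genes, so the order was the same there. Overlapping windows of 1 gene share their letters and are not independent.

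Genes that work with the receptors were counted from fixed lists. The share of all protein-coding genes with a region at their own ends, 74.2%, 72.3% and 70.0%, is the background for each list. The share of all genes whose gene-end call differed between lists was not computed. Single genes named below for such a difference therefore have no background. Of 23 coregulators, 22, 21 and 22 had such a region, and 35 of 111 normoxia regions were not called in hypoxia, or 31.5% against 17.8% over all genes, with 26.2 expected by score. Of their 83 hypoxia regions, 22 were not called with shZHX2, or 26.5% against 21.3%, with 19.9 expected. In reverse, 7 of the 83 were not called in normoxia, or 8.43% against 5.19%, with 5.12 expected. Of their 71 regions with shZHX2, 10 were not called in hypoxia with shCtrl, or 14.1% against 5.43%, with 4.87 expected. NCOA2, a coactivator, had its gene-end call in normoxia and with shZHX2 and not in hypoxia with shCtrl. NCOA3, NRIP1, CREBBP and TBL1XR1 had 5 normoxia regions each that hypoxia lacked, NCOA2 had 4 and LCOR 3. NCOA3 and TBL1XR1 had 4 hypoxia regions each that shZHX2 lacked.

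Among 20 genes of ligand synthesis, breakdown and transport, 12, 14 and 11 had a region at their own ends. With shZHX2, 21 of their 66 hypoxia regions were not called, or 31.8% against 21.3%, with 18.9 expected, while 10 of 70 normoxia regions were not called in hypoxia, or 14.3% against 17.8%, with 15.3 expected. CRABP1, which carries retinoids, RDH10, a retinol dehydrogenase, DIO3, which inactivates thyroid hormone, and FABP5, a fatty acid carrier, had 3 such regions each with shZHX2, and DIO3 had 3 that hypoxia lacked. The gene-end call of ALDH1A2 was missing with shZHX2, and those of CYP26B1 and FABP5 were present in hypoxia with shCtrl only.

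Of 29 target genes of the receptors, 24, 23 and 23 had a region at their own ends. The regions not called were 23 of 149 from normoxia to hypoxia, or 15.4% against 17.8%, and 34 of 137 from hypoxia to shZHX2, or 24.8% against 21.3%, with 23.1 and 31.5 expected by score. PER2, a clock gene, had its gene-end call in normoxia only. TGM2 had 3 normoxia regions that hypoxia lacked and 5 hypoxia regions that shZHX2 lacked. CPT1A and CRY1 had 3 each in the first comparison, and STRA6 had 4 and ABCG1, SREBF1 and BMAL1 3 each in the second. In the reverse direction CPT1A had 4 regions with shZHX2 that hypoxia with shCtrl lacked.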

How the data were processed

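Lists of ATAC-seq regions from 9 T47D samples in 3 groups were used, 1 list per group, matched to groups by the names of the lists. Each was deposited without a header in a broad-peak layout of 9 columns. The authors gave each region a score, a fold enrichment, a −log10 p and a −log10 q. FastQC, Bowtie2, SAMtools, MACS2 and hg38 are named per the submitters' processing notes, without versions. How 3 samples were combined, and whether reads were shifted for the transposase, is not given in the sources used here. A score is 10 times its −log10 q rounded down, apart from rare regions, and each −log10 p exceeds 10. Regions on mitochondrial DNA (11 in all) were left out.

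With Python 3.11.15, pandas 2.3.3, numpy 2.4.6, scipy 1.17.1 and matplotlib 3.10.9, regions were assigned to the nearest start or end within 50 kb among 20037 protein-coding genes (RefSeq, GRCh38.p14), and were called gene-end within 1 kb. Regions of 2 lists sharing 1 bp counted as called in both. Expected numbers give each region the rate of its score decile among all regions of its list, including those assigned to no gene. Shares have Wilson 95% intervals, and a count of 0 has a limit of 3 counts. Scripts were tested on simulated data. No test between groups was possible with 1 list each, and read depth is unknown.

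All 44 members were counted. Those named in full had a gene-end call that differed between lists, 3 or more regions called in 1 list of a pair only, or the 6 highest region totals (ties included). Genes of the other lists were named by the first 2 criteria, except for some that are not reported here. The members and lists were chosen with earlier results of these data known. Alternatives were a 50% reciprocal overlap, a −log10 p of at least 20, the stronger 50% of each list, lists of equal length, assignment within 20 kb or by gene body, and a gene-end window of 0.5 kb. The count over start windows was added after the data were seen.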

Additional observations from a re-analysis of the deposited data

How the results depend on the processing

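Of 92 recomputed values, 63 stayed near the reported value and 29 moved. Shares were judged by the Wilson interval of the reported share. Counts of members with a gene-end region were judged by a fixed ratio to the reported count instead. The counts over start windows were out of 39 members and were set against counts out of 44. Assignment within 20 kb, or by the gene and 50 kb around it, moved 0 of 12 values each. With a −log10 p of at least 20 in both lists, normoxia regions not called in hypoxia were 15.4% of all member regions, 19.0% of distal and 0% of gene-end ones. When only the stronger 50% of a list was counted, these shares were all 0%. The shares of hypoxia regions not called in normoxia were then 0% of all and 0% of distal regions. Hypoxia regions not called with shZHX2 came to 1.98% of all, 2.70% of distal and 0% of gene-end regions, and in the reverse direction to 1.15%, 1.69% and 0%. With lists of equal length by score, normoxia regions not called in hypoxia were 9.55% of all, 11.8% of distal and 0% of gene-end regions, and the reverse gave 8.39% of all and 11.8% of gene-end regions. Hypoxia regions not called with shZHX2 were then 8.39% of all, 10.7% of distal and 0% of gene-end regions, and the reverse gave 13.3% of all and 16.2% of distal ones. A 50% reciprocal overlap gave 11.4% of all and 12.7% of distal regions from hypoxia to normoxia, and 13.3% and 15.4% from shZHX2 to hypoxia. A gene-end window of 0.5 kb gave 0% of gene-end regions not called with shZHX2. The cause was not tested, and the shares over all genes were not recomputed under these settings. No paired analysis was possible because each group has 1 list with no values per replicate, and for the same reason no replicate could be left out. The number of called regions limits the precision, most of all at gene ends, and a region not called may lie just under the threshold.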

Other observations

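Some receptor genes are neighbours, and the stretch from the first to the last gene of such a group held regions that belonged to other genes as well. On chromosome 17, THRA, NR1D1 and RARA lie within 295 kb, and that stretch held 29, 28 and 25 regions in normoxia, hypoxia with shCtrl and hypoxia with shZHX2, or 9.82, 9.48 and 8.46 per 100 kb. The related NR1D2, THRB and RARB on chromosome 3 are spread over 1653 kb with 43, 37 and 30 regions, or 2.60, 2.24 and 1.82 per 100 kb. NR5A1 and NR6A1 on chromosome 9 lie within 290 kb with 21, 21 and 15 regions, or 7.24, 7.24 and 5.17 per 100 kb. Densities over the genome or over other groups of genes were not computed, and the lists differ in length. Whether these stretches differ from others was therefore not tested.

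Several members are long, and regions deep inside them lie more than 50 kb from either end and were assigned to no gene. Counting all regions inside the gene, RORA had 20, 19 and 12, RARB had 18, 14 and 12, and ESRRG had 19, 12 and 13. These genes were picked after their values were seen.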
